A study of Mus musculus with 20 samples.

Results

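The genes described are 10 members of the Wnt and beta-catenin pathway, 10 of the 55487 gene identifiers counted in granulosa cells (GCs) of mice. They were taken as a list of named genes, drawn up with earlier results of these data known, and each was matched by its symbol in the GENCODE M21 annotation to its Ensembl identifier. They were measured in 20 female mice of 2 lines, with 5 mice in each of 4 groups: ctrl mice in estrus, ctrl mice in diestrus, FL1 mice in estrus and FL1 mice in diestrus. FL1 is the Dummerstorf line bred over many generations for large and heavy litters, and ctrl is a line from the same founders that was bred without selection. No mouse carried a transgene or was treated, all were 77 ± 5 days old, the stage came from vaginal smears, and the mural GCs of 7 to 10 of the largest follicles of 1 mouse made 1 sample. A difference between the lines is therefore a difference between 2 breeding populations. The sources used here name neither the litters nor the days on which the mice were taken.

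Wnt proteins are secreted ligands that bind Frizzled receptors together with the co-receptors Lrp5 or Lrp6. Without a ligand, a complex built on axin marks beta-catenin for breakdown. With a ligand, beta-catenin accumulates and acts in the nucleus with TCF factors, and it also links cadherins to the cytoskeleton at cell contacts. In the ovary the pathway is known from sex determination, where Wnt4 belongs to the female program, and from follicle growth, luteinization and the response of GCs to gonadotropins.

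The ligand gene is Wnt4 (ENSMUSG00000036856, GRCm38 chr4:137277489-137299726, plus strand). The receptor genes are Fzd1 (ENSMUSG00000044674, chr5:4753839-4758035, minus strand), Fzd4 (ENSMUSG00000049791, chr7:89404355-89413134, plus strand) and Lrp6 (ENSMUSG00000030201, chr6:134446476-134566965, minus strand). Znrf3 (ENSMUSG00000041961, chr11:5276324-5444847, minus strand) encodes a ubiquitin ligase that removes Frizzled receptors from the cell surface. Sfrp1 (ENSMUSG00000031548, chr8:23411502-23449632, plus strand) and Sfrp4 (ENSMUSG00000021319, chr13:19623104-19632994, plus strand) encode secreted Frizzled-related proteins, which bind Wnt ligands outside the cell. Ctnnb1 (ENSMUSG00000006932, chr9:120929216-120960507, plus strand) encodes beta-catenin, and Tcf7l2 (ENSMUSG00000024985, chr19:55741820-55933654, plus strand) encodes a TCF factor. Axin2 (ENSMUSG00000000142, chr11:108920349-108950783, plus strand) encodes a scaffold of the breakdown complex and is itself a target gene of the pathway.

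The libraries were primed at the poly(A) tail, so the counts come mainly from the last exon and do not show which start site or protein form was used. RefSeq promoter sequences (GRCm38.p6) were found for 6 of the 10 genes, and Lrp6, Sfrp1, Sfrp4 and Znrf3 had no entry in the table. The windows cover 250 bases before the RefSeq start. They are printed for Wnt4, the member with a stage effect, and for Axin2, the target gene, with each CG dinucleotide in capitals. For Wnt4 the last 146 bases of the window lie inside the gene as GENCODE places it, so only the bases before that gene start are printed.
Wnt4, chr4:137277385-137277488, plus strand: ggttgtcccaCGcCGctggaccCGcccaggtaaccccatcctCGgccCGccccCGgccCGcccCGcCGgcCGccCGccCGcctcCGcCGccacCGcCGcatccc
Axin2, chr11:108920099-108920348, plus strand: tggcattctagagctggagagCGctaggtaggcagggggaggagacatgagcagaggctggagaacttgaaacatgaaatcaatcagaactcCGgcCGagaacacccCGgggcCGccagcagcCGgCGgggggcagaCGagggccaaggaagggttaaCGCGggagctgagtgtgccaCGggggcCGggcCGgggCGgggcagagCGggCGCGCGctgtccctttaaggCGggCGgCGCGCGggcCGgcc
The whole window of Wnt4 held 44 CG dinucleotides and 85.2% G and C, and that of Axin2 held 24 and 69.2%. The medians over the 32851 promoters of the table were 6.0 and 52.4%. The TCF/LEF letters CTTTGAA or CTTTGAT on either strand were in 7.48% of all these windows, and the letters AAGGTCA bound by NR5A receptors, which are abundant in GCs, in 4.08%. Neither was in any of the 8 windows of the 6 genes (Ctnnb1 and Tcf7l2 have 2 windows each). The 2 sets of letters do not overlap, and the count says nothing about sites outside these windows.

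Between 5446576 and 8257041 reads per mouse were counted on genes. Expression is given as CPM, the reads of a gene divided by the library size in units of 1000000 reads, with TMM scaling over all 20 mice. Foxl2, the transcription factor that marks GCs, and Inha, the inhibin alpha subunit, were read in every mouse, with group means of 391 to 525 CPM and of 4137 to 5684 CPM. Transcripts of other cells were present too: the sum of 8 markers of stroma and smooth muscle lay between 137 and 2046 CPM per mouse, that of 6 endothelial markers between 9.84 and 85.0 CPM and that of 8 oocyte and cumulus markers between 53.4 and 529 CPM. The sum of 6 theca markers lay between 669 and 2394 CPM per mouse. Of these, Insl3 was at 0 in 3 of the 4 groups and at 0.0364 CPM in the mean of the ctrl mice in diestrus, while Cyp17a1, the theca enzyme of androgen synthesis, had group means of 10.6 to 95.6 CPM. In such samples fewer cells of one type and less RNA per cell cannot be told apart. The libraries of ctrl diestrus mouse 1 and FL1 estrus mouse 4 had the lowest median rank correlation with the others (0.870 each, against 0.884 to 0.912), and results that change without them are given with both values.

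All 10 genes passed the filter on low counts in all comparisons. The lines were compared in all 20 mice with the stage as a second term, and the stages with the line as a second term, by edgeR's quasi-likelihood test with Benjamini-Hochberg adjustment over all genes tested and a threshold of 0.05. Of the 10 genes, Sfrp4 was the one that differed between the lines, with higher expression in FL1 mice, while 1.21% of all 14938 genes tested passed. Wnt4 was the one that differed between the stages, with lower expression in diestrus, while 3.17% of all genes passed. The median log2 fold change of the 10 genes was 0.27 between the lines and −0.15 between the stages, against 0.01 and 0.02 for all genes. DESeq2 called Ctnnb1 and Sfrp4 between the lines, where it called 2.66% of its genes, and Wnt4, Fzd1, Sfrp1 and Tcf7l2 between the stages, where it called 5.67%.

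**Figure D1:**
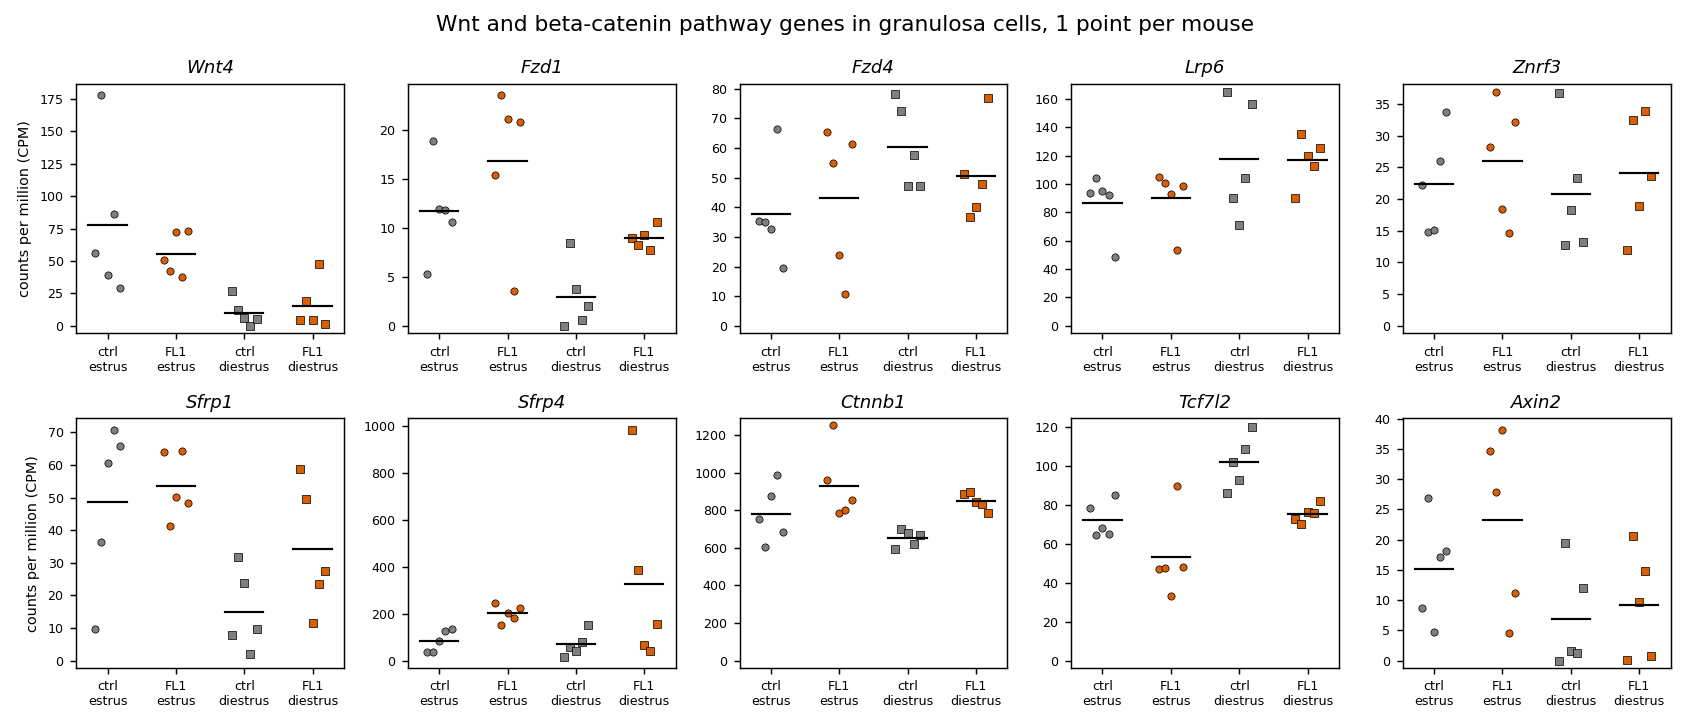
Expression (CPM, linear axis from 0, one scale per gene) of the 10 genes by group, with 1 point per mouse and a line at the mean of 5 mice, ctrl in gray and FL1 in orange, estrus as circles and diestrus as squares. In estrus Sfrp4 was at 150 to 246 CPM in FL1 mice and at 34.3 to 135 CPM in ctrl mice. In diestrus it was at 40.0 to 982 CPM in FL1 mice and at 15.7 to 153 CPM in ctrl mice. Wnt4 was at 0 to 26.5 CPM in ctrl mice in diestrus and at 29.5 to 178 CPM in ctrl mice in estrus.

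**Figure D2:**
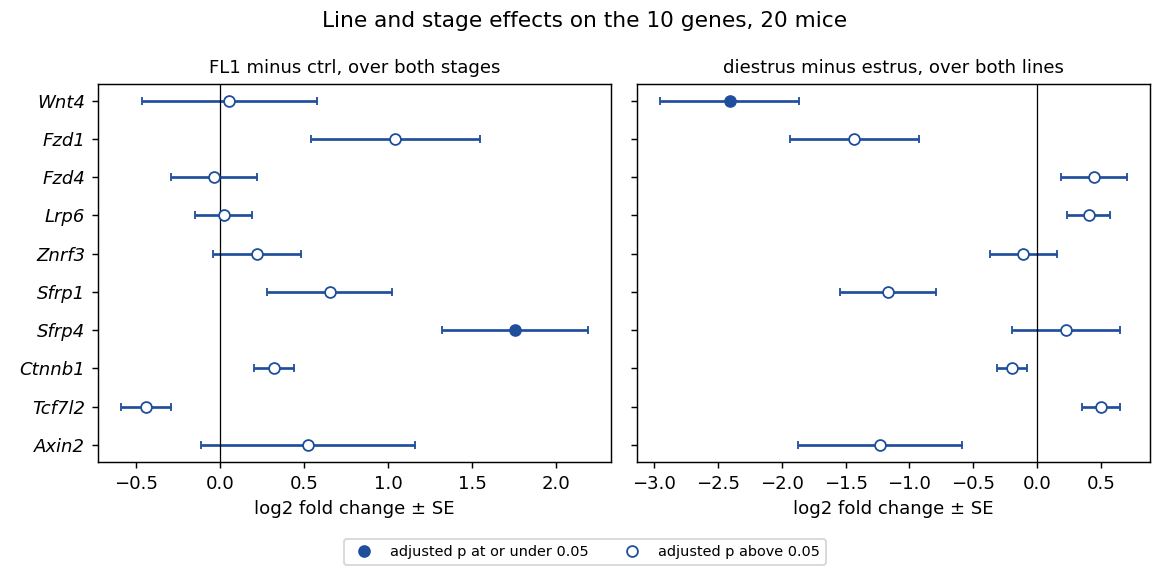
Log2 fold changes of the 10 genes with their standard errors, FL1 minus ctrl over both stages (left) and diestrus minus estrus over both lines (right), from the edgeR fits of 20 mice, with filled points where the adjusted p was at or under 0.05. The filled points are Sfrp4 on the left (1.75) and Wnt4 on the right (−2.41).

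Sfrp4 was read at 34.3, 36.8, 83.1, 126 and 135 CPM in the 5 ctrl mice in estrus and at 246, 150, 201, 181 and 223 CPM in the 5 FL1 mice in estrus. Every FL1 mouse in estrus was above every ctrl mouse in estrus. In diestrus the ctrl mice were at 15.7, 57.8, 41.2, 78.7 and 153 CPM and the FL1 mice at 982, 386, 65.0, 40.0 and 157 CPM. In this stage 3 of 5 FL1 mice were above all ctrl mice, the other two lay within their range, and mouse 1 was far above the rest of its group. Over both stages Sfrp4 was 3.37-fold higher expressed in FL1 mice (log2 fold change 1.75, SE 0.43, adjusted p = 0.0374 in edgeR's test). Within single stages the difference did not pass the threshold, with a log2 fold change of 1.27 (SE 0.33, adjusted p = 0.0855) in estrus and of 2.24 (SE 0.72, adjusted p = 0.490) in diestrus by the same edgeR test. When 1 mouse was left out, the log2 fold change ranged from 1.08 to 1.53 in estrus and from 1.23 to 2.76 in diestrus. DESeq2 called the difference in estrus (adjusted p = 0.0169), where it called 2.67% of its genes.

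The line difference of Sfrp4 lay close to the threshold. It lost the threshold in 12 of the 20 edgeR fits that left out 1 mouse, with adjusted p between 0.0502 and 0.0874 in these 12. They were the fits without ctrl estrus mouse 1, 2 or 3, ctrl diestrus mouse 1, 2, 3 or 4, FL1 estrus mouse 1, 3 or 5 and FL1 diestrus mouse 1 or 2. Without FL1 diestrus mouse 1 the log2 fold change was 1.25 (adjusted p = 0.0874 in edgeR's test). In the other fits without 1 mouse it ranged from 1.61 to 1.96. Without the 2 libraries of lowest correlation it was 1.65 (adjusted p = 0.0631). The direction was the same in all of these fits.

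Some genes known to rise when GCs luteinize were also higher in FL1 mice. The sum of 8 such markers was 3157 to 6925 CPM in ctrl mice and 11094 to 15766 CPM in FL1 mice in estrus, and 2573.5 to 7298 CPM and 4935 to 9952 CPM in diestrus. Of these 8 genes, Ptgfr (log2 fold change 1.96), Akr1c18 (2.83), Prlr (1.30), Cyp11a1 (1.64) and Star (2.17) were called higher in FL1 mice over both stages by edgeR, and Lhcgr (3.02), the LH receptor, in estrus. Ptgfr, the receptor of prostaglandin F2 alpha, was also among the genes with the pattern most like that of Sfrp4. FL1 diestrus mouse 1, with the highest Sfrp4, had the highest sum of its group, whereas mouse 2 with 386 CPM of Sfrp4 had 6109 CPM, less than mouse 3 with 8240 CPM and 65.0 CPM of Sfrp4. Markers of some other cell types had mostly positive estimates as well, of which edgeR called 0 and DESeq2 called 1 immune marker. Over both stages 6 of 6 immune markers (median log2 fold change 1.92), 5 of 5 endothelial markers tested (1.08) and 7 of 8 stroma and smooth muscle markers (0.53) were above 0. Of these, 3, 1 and 3 had an unadjusted p under 0.05 in edgeR's test. Above 0 were also 5 of 6 surface epithelium markers (0.50) and 5 of 8 oocyte and cumulus markers (0.22). Of the GC markers 4 of 8 (−0.06) and of the theca markers tested 2 of 5 (−0.16) were above 0. The sum of the immune markers was 13.3 to 17.9 CPM in ctrl and 21.2 to 40.8 CPM in FL1 mice in estrus, without overlap, and 1.61 to 11.0 CPM and 5.69 to 39.3 CPM in diestrus. The part of all these genes in the result was not tested.

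**Figure D3:**
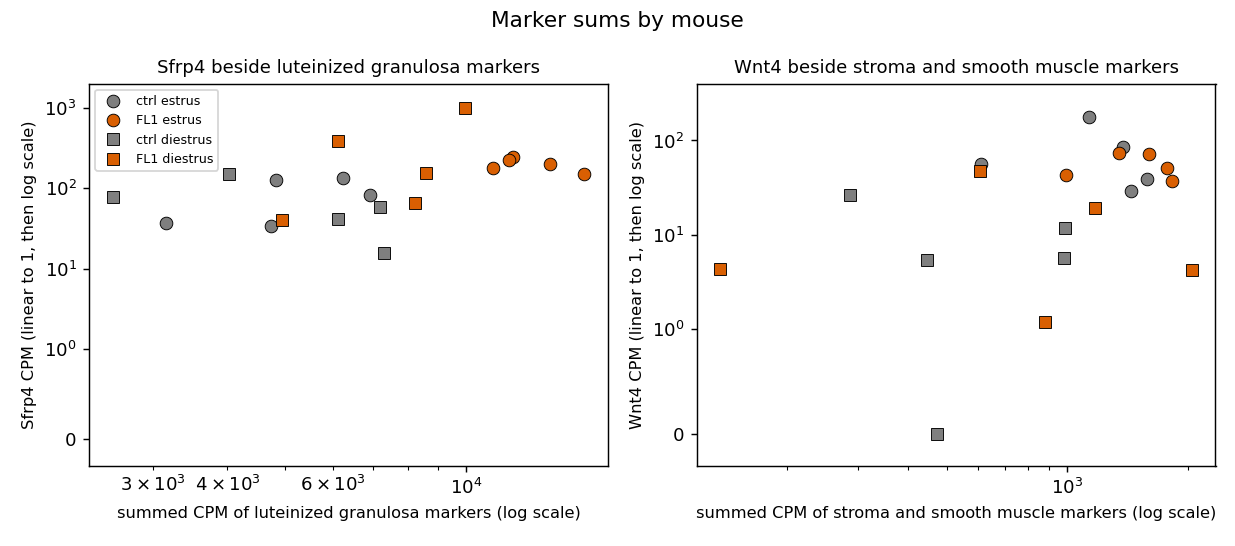
CPM of Sfrp4 against the summed CPM of 8 luteinized granulosa markers (left) and CPM of Wnt4 against the summed CPM of 8 stroma and smooth muscle markers (right), 1 point per mouse, horizontal axes on a log scale, vertical axes linear up to 1 and on a log scale above. The 5 FL1 mice in estrus lie to the right of all others on the left, and on the right 9 of 10 diestrus mice lie below all estrus mice, with FL1 diestrus mouse 4 (48.0 CPM) among them.

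Sfrp1, the other secreted Frizzled-related protein, was read at 9.79, 36.5, 60.6, 70.9 and 65.9 CPM in ctrl mice and at 63.9, 41.2, 50.2, 64.2 and 48.3 CPM in FL1 mice in estrus. In diestrus it was at 7.69, 31.7, 23.7, 2.004 and 9.65 CPM in ctrl mice and at 58.8, 49.6, 11.5, 23.4 and 27.5 CPM in FL1 mice. The groups overlapped in each comparison, and 3 of 5 diestrus mice of each line were below all estrus mice of that line. The stage difference over both lines (log2 fold change −1.17, SE 0.37, adjusted p = 0.0888 in edgeR's test) did not pass the threshold. It passed in DESeq2 (adjusted p = 0.0415), and in edgeR without ctrl estrus mouse 1 (−1.27, adjusted p = 0.0490) or without FL1 diestrus mouse 1 (−1.33, adjusted p = 0.0359). The values within the lines were −1.71 (SE 0.59) in ctrl mice and −0.66 (SE 0.35) in FL1 mice. Between the lines the log2 fold change was 0.65 (SE 0.37, adjusted p = 0.574).

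Wnt4, the ligand, was read at 55.8, 178, 38.9, 86.2 and 29.5 CPM in ctrl mice and at 50.8, 42.6, 72.5, 37.4 and 73.5 CPM in FL1 mice in estrus. In diestrus it was at 26.5, 11.8, 5.75, 0 and 5.36 CPM in ctrl mice and at 4.22, 19.1, 4.39, 48.0 and 1.197 CPM in FL1 mice. All ctrl mice in diestrus were below all ctrl mice in estrus, and 4 of 5 FL1 mice in diestrus were below all FL1 mice in estrus. The count of 0 in ctrl diestrus mouse 4 allows up to 3 reads in this library and does not show that the gene was silent. Over both lines Wnt4 was 5.31-fold weaker expressed in diestrus (log2 fold change −2.41, SE 0.54, adjusted p = 0.0104 in edgeR's test). It passed the threshold in all 20 fits that left out 1 mouse, with log2 fold changes from −2.96 to −2.13.

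Within the ctrl line the stage difference of Wnt4 was −2.98 (SE 0.73, adjusted p = 0.0533 in edgeR's test) and within the FL1 line −1.86 (SE 0.65, adjusted p = 0.30). In ctrl mice it passed without ctrl estrus mouse 5 (−3.20, adjusted p = 0.0497), without ctrl diestrus mouse 1 (−3.74, adjusted p = 0.0187) or without ctrl diestrus mouse 4 (−2.67, adjusted p = 0.0376). The difference between these stage effects was 1.13 (SE 1.03, adjusted p = 0.9998 in edgeR's test), which does not show that they were equal. When 1 mouse was left out, this difference ranged from 0.0592 to 1.89, and the stage effect in FL1 mice from −2.93 to −1.56. Between the lines the log2 fold change was 0.06 (SE 0.52, adjusted p = 0.992), and its sign changed in 7 of the 20 fits without 1 mouse. In the last 500 bases of the Wnt4 transcripts a stretch of at least 100 bases was found, with at least 90% identity, in transcripts of 577 other genes, whereas no other member had such a stretch. Reads with several equal matches are not in the counts, so the level of Wnt4 is uncertain in this respect.

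Markers of the cells also differed between the stages. Over both lines edgeR called Fshr (log2 fold change 1.35), Inhba (1.46) and Cyp19a1 (1.58) of the GC markers higher in diestrus. Of the luteinized markers it called Cyp11a1 (−1.51), Star (−1.30) and Scarb1 (−0.63) lower. Of the theca markers it called Cyp17a1 higher (adjusted p = 0.00294 in edgeR's test). Estimates were above 0 for 6 of 8 GC, 2 of 8 luteinized and 2 of 5 theca markers tested, with a theca median of −0.39. The theca sum had medians of 1468.6 CPM in ctrl and 1677.5 CPM in FL1 mice in estrus. In diestrus its medians were 997.2 CPM and 1051.7 CPM. All 8 stroma and smooth muscle markers had negative estimates (median −0.88), of which 0 were called by edgeR and 5 had an unadjusted p under 0.05. Their sum was 608 to 1577 CPM in ctrl mice and 994 to 1820 CPM in FL1 mice in estrus, and 288 to 986 CPM and 137 to 2046 CPM in diestrus. FL1 diestrus mouse 1 had the highest sum of all mice with Wnt4 at 4.22 CPM and Sfrp1 at 58.8 CPM. The part of these genes and cells in the stage differences of Wnt4 and Sfrp1 was not tested.

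Of the receptors, Fzd1 had the largest estimated stage difference. It was read at 5.26, 18.8, 11.9, 11.8 and 10.6 CPM in ctrl mice and at 15.4, 23.5, 21.1, 3.52 and 20.7 CPM in FL1 mice in estrus. In diestrus the ctrl mice were at 0, 8.45, 3.75, 0.547 and 2.01 CPM and the FL1 mice at 8.91, 8.24, 9.26, 7.69 and 10.6 CPM. The FL1 mice in diestrus lay close together, and 4 of 5 ctrl mice in diestrus were below all ctrl mice in estrus. The log2 fold change between the stages was −1.43 (SE 0.51, adjusted p = 0.133 in edgeR's test), with −1.98 (SE 0.93) in ctrl mice and −0.92 (SE 0.48) in FL1 mice. DESeq2 called it over both lines (adjusted p = 0.0367), as did edgeR without the 2 libraries of lowest correlation (−1.42, adjusted p = 0.0426). Between the lines it was 1.04 (SE 0.50, adjusted p = 0.445 in edgeR's test).

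Fzd4, Lrp6 and Znrf3 passed no edgeR test between lines or stages. Fzd4 was between 10.8 and 78.4 CPM in all mice, with means of 37.8 ± 17.3 CPM (SD, n = 5) in ctrl and 43.3 ± 24.4 CPM in FL1 mice in estrus and of 60.5 ± 14.4 CPM and 50.5 ± 15.8 CPM in diestrus. Its log2 fold change was 0.45 (SE 0.26, adjusted p = 0.456) between the stages and −0.03 (SE 0.26, adjusted p = 0.989) between the lines, where the sign turned in 7 of the 20 fits without 1 mouse. Lrp6, the co-receptor, had means of 86.8 ± 21.8 CPM (SD, n = 5) in ctrl and 90.2 ± 20.9 CPM in FL1 mice in estrus and of 118 ± 41.5 CPM and 117 ± 17.3 CPM in diestrus. Its log2 fold change was 0.40 (SE 0.17, adjusted p = 0.237) between the stages and 0.02 (SE 0.17, adjusted p = 0.989) between the lines, where the sign turned in 5 of 20 such fits. Znrf3 had means of 22.3 ± 7.94 CPM (SD, n = 5) and 26.1 ± 9.33 CPM in estrus and of 20.8 ± 9.83 CPM and 24.1 ± 9.24 CPM in diestrus, for ctrl and FL1 in this order. Its log2 fold change was −0.11 (SE 0.26, adjusted p = 0.917) between the stages and 0.22 (SE 0.26, adjusted p = 0.867) between the lines. For these genes, the differences between lines were within the spread of the mice.

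Ctnnb1, the central protein of the pathway, was read at 752, 603, 877, 986 and 686 CPM in ctrl mice and at 959, 1257, 784, 804 and 857 CPM in FL1 mice in estrus. In diestrus it was at 591, 700, 680, 620 and 667 CPM in ctrl mice and at 889, 899, 847, 831 and 788 CPM in FL1 mice. In diestrus all FL1 mice were above all ctrl mice, and in estrus the groups overlapped. The log2 fold change between the lines was 0.32 (SE 0.12, adjusted p = 0.249 in edgeR's test) over both stages, 0.25 (SE 0.19) in estrus and 0.39 (SE 0.16, adjusted p = 0.808) in diestrus. DESeq2 called the difference over both stages (0.34 on the log2 scale, adjusted p = 0.0392). Between the stages the log2 fold change was −0.20 (SE 0.12, adjusted p = 0.498). On the opposite strand the gene overlaps Ulk4 and 4930593C16Rik, which together held 1061 reads over all mice against 108096 for Ctnnb1.

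Tcf7l2 was read at 78.7, 64.8, 68.4, 65.0 and 85.0 CPM in ctrl mice and at 47.2, 47.7, 33.1, 89.8 and 48.3 CPM in FL1 mice in estrus. In diestrus it was at 86.4, 102.3, 92.8, 108.8 and 120.3 CPM in ctrl mice and at 72.8, 70.5, 76.4, 75.9 and 81.9 CPM in FL1 mice. In diestrus all FL1 mice were below all ctrl mice, and in estrus 4 of 5 were, with FL1 estrus mouse 4 above all ctrl mice. All ctrl mice in diestrus were above all ctrl mice in estrus. In edgeR's test the log2 fold change over both stages was −0.44 (SE 0.15, adjusted p = 0.178) between the lines, and over both lines it was 0.50 (SE 0.15, adjusted p = 0.0603) between the stages.

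Both values of Tcf7l2 passed without FL1 estrus mouse 4, whose library was one of the 2 with the lowest correlation. Without it the log2 fold change was −0.57 between the lines (adjusted p = 0.0213) and 0.63 between the stages (adjusted p = 0.0057). Without the 2 libraries of lowest correlation the values were −0.60 (adjusted p = 0.0149) and 0.65 (adjusted p = 0.00524). DESeq2 called the stage difference in all 20 mice (adjusted p = 0.0195). Within single groups the line effect was −0.45 (SE 0.25) in estrus and −0.43 (SE 0.18) in diestrus, and the stage effect was 0.49 in both lines (SE 0.18 in ctrl and 0.25 in FL1 mice). A short gene on the same strand, Ppnr, held 132 reads over all mice against 10102 for Tcf7l2.

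Axin2 was read at 8.77, 26.9, 4.70, 17.1 and 18.04 CPM in ctrl mice and at 34.6, 27.8, 38.1, 4.50 and 11.2 CPM in FL1 mice in estrus. In diestrus it was at 0, 19.5, 1.61, 1.28 and 11.9 CPM in ctrl mice and at 0.156, 20.6, 9.75, 14.9 and 0.684 CPM in FL1 mice. In each group the highest mouse was several times above the lowest, and all groups overlapped. The log2 fold change was −1.23 (SE 0.64, adjusted p = 0.390 in edgeR's test) between the stages and 0.52 (SE 0.64, adjusted p = 0.872) between the lines.

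Within single groups of 10 mice edgeR called none of the 10 genes. Between the lines in estrus 0.769% of 13007 genes tested were called, and 0.248% of 12886 genes in diestrus. At an unadjusted p under 0.05 there were 1 of 10 members in estrus and 3 in diestrus, against 10.7% and 5.56% of all genes. Between the stages 1.36% of 12850 genes were called in ctrl mice and 0.221% of 13114 genes in FL1 mice, and 5 and 1 of 10 members had an unadjusted p under 0.05, against 11.8% and 9.48% of all genes. DESeq2 called 1 member, Sfrp4, in estrus and 0 in the other single comparisons. The groups of 5 mice did not overlap for Sfrp4 between the lines in estrus (3.56% of all genes), for Ctnnb1 and Tcf7l2 between the lines in diestrus (1.58%), for Wnt4 and Tcf7l2 between the stages in ctrl mice (3.66%) and for no member between the stages in FL1 mice (2.42%). The comparisons of lines and of stages share the same mice and are not independent. The interaction of line and stage was called for 0 of 10 members by edgeR and by DESeq2, with 0 at an unadjusted p under 0.05, and for 0% of the 14938 genes, of which 710 had an unadjusted p under 0.05 in edgeR and 0 were called by DESeq2. For Sfrp4 the interaction was 0.96 (SE 0.83), and without FL1 diestrus mouse 1 it was −0.05.

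A list of 120 other genes of the pathway was looked at beside the 10, of which 91 could be tested in all 20 mice. Between the stages over both lines 4 were called higher and 4 lower in diestrus, 8 of 91 against 3.17% of all genes. Within ctrl mice 4 were called higher and 2 lower of 86 tested, against 1.36% of all genes, and DESeq2 called 10, against 3.39% of its genes. Within FL1 mice edgeR called 0 of 87 (0.221% of all genes), with 14.9% at an unadjusted p under 0.05, against 9.48% of all genes, and 3 called by DESeq2, against 1.72% of its genes. Whether the lines differ in this was not shown, since the interaction was called for 0 of 91 (8 at an unadjusted p under 0.05 in edgeR, against 4.75% of all genes, 0 called by DESeq2). Between the lines edgeR called 0 of 89 in estrus, 0 of 87 in diestrus and 0 of 91 over both stages, with 12.4%, 10.3% and 13.2% at an unadjusted p under 0.05, against 10.7%, 5.56% and 11.0% of all genes. DESeq2 called 4, 2 and 1 of the list, against 2.67%, 0.72% and 2.66% of its genes. The median log2 fold change between the stages over both lines was 0.00 for the list and 0.02 for all genes, so the list did not move one way.

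Of the 7 ligand and secretion genes tested besides Wnt4, Wnt6 and Wnt5a were called, both lower in diestrus. Wnt6, another secreted ligand, was at 36.5 ± 8.70 CPM (SD, n = 5) in ctrl and 31.5 ± 8.59 CPM in FL1 mice in estrus and at 6.68 ± 3.64 CPM and 9.49 ± 7.55 CPM in diestrus, without overlap of the stages in either line. Its log2 fold change was −2.46 (SE 0.41, adjusted p = 0.0069 in edgeR's test) in ctrl mice, −1.74 (SE 0.59) in FL1 mice and −2.09 (SE 0.38, adjusted p = 0.00185) over both lines, and both calls held in all fits without 1 mouse. Wnt5a, a ligand known mainly for signaling without beta-catenin, was at 24.8 ± 11.9 CPM in ctrl and 48.0 ± 10.6 CPM in FL1 mice in estrus and at 7.93 ± 4.87 CPM and 23.1 ± 16.4 CPM in diestrus (SD, n = 5). Its stage difference of −1.34 (SE 0.37, adjusted p = 0.0369 in edgeR's test) lost the threshold in 10 of 20 fits without 1 mouse, with adjusted p up to 0.0733, and also without the 2 libraries of lowest correlation (−1.20 on the log2 scale, adjusted p = 0.0929).

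Among 7 tested genes of inhibitors that are secreted or act at the cell surface, Sfrp2 was called lower in diestrus (adjusted p = 0.0490 in edgeR's test). Sfrp2 encodes a secreted Frizzled-related protein, as Sfrp1 and Sfrp4 do. It had 19 and 57 reads in ctrl mice 3 and 4 in estrus and 0 in the 3 others. FL1 mice in estrus had between 2 and 118 reads in 4 mice and 0 in mouse 4. In diestrus there were 7 reads in ctrl mouse 2 and 0 in the 9 other mice. The gene was thus read in single mice, and the call was lost in 14 of 20 fits without 1 mouse, with adjusted p up to 0.188. The stroma marker sums given for Wnt4 stand beside this result too, and their part was not tested.

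Dact1 and Cxxc4, which encode proteins that bind Dishevelled and can dampen the signal, were called higher in diestrus among 21 genes of that role. Dact1 was at 9.64 ± 5.37 CPM (SD, n = 5) in ctrl and 17.2 ± 9.18 CPM in FL1 mice in estrus and at 42.6 ± 27.0 CPM and 46.4 ± 26.6 CPM in diestrus, a log2 fold change of 1.79 (SE 0.35, adjusted p = 0.00299 in edgeR's test) that held in all fits without 1 mouse. Within ctrl mice it was 2.14 (SE 0.46, adjusted p = 0.0288), lost in 7 of 10 such fits. Cxxc4 was at 36.7 ± 9.31 CPM (SD, n = 5) in ctrl and 37.4 ± 23.5 CPM in FL1 mice in estrus and at 98.8 ± 21.0 CPM and 55.7 ± 17.3 CPM in diestrus. Its stage difference was 1.42 (SE 0.24, adjusted p = 0.0069 in edgeR's test) in ctrl mice and 1.00 (SE 0.26, adjusted p = 0.0259) over both lines, and the second was lost in 6 of 20 fits without 1 mouse.

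Among the 18 TCF and nuclear cofactor genes, Tle1, a corepressor of TCF factors, was called higher in diestrus (log2 fold change 0.96, SE 0.20, adjusted p = 0.00597 in edgeR's test). Aes, a short relative of the Tle proteins, was called lower (−0.93, SE 0.20, adjusted p = 0.00746), and within ctrl mice as well (−1.02, SE 0.23, adjusted p = 0.0368), where the call was lost in 8 of 10 fits without 1 mouse, and without the 2 libraries of lowest correlation (adjusted p = 0.074). Tbl1xr1, a part of corepressor and coactivator complexes, was called higher in diestrus within ctrl mice (1.23, SE 0.27, adjusted p = 0.0285 in edgeR's test), lost in 8 of 10 such fits and without the 2 libraries (adjusted p = 0.0521). In FL1 mice its value was −0.11 (SE 0.29), and the interaction was −1.34 (SE 0.40, adjusted p = 0.933 in edgeR's test). Of 13 target genes tested, Fst, which encodes the activin-binding follistatin, was called higher in diestrus. It rose from 505 ± 174 CPM to 1232 ± 238 CPM (SD, n = 5) in ctrl mice, with a log2 fold change of 1.28 (SE 0.23, adjusted p = 0.0101 in edgeR's test), and over both lines the value was 1.07 (SE 0.22, adjusted p = 0.00456). In FL1 mice Fst was at 665 ± 173 CPM in estrus and 1205 ± 734 CPM in diestrus (SD, n = 5).

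In the other roles edgeR called no gene, and the gene of lowest p is given for each. Among 11 receptors it was Fzd8, with a stage difference over both lines of 0.94 (SE 0.27, adjusted p = 0.0539 in edgeR's test), which passed without the 2 libraries of lowest correlation (0.99, adjusted p = 0.0484), without the filter on low counts (adjusted p = 0.0315) and in DESeq2 (adjusted p = 0.025). Among 6 genes of the R-spondin branch, which stabilizes Frizzled receptors, it was Lgr6, an R-spondin receptor, with a stage difference in FL1 mice of 1.22 (SE 0.40, adjusted p = 0.264 in edgeR's test). Among 8 partners of beta-catenin it was Cdh2, which encodes N-cadherin, with a stage difference over both lines of 0.68 (SE 0.23, adjusted p = 0.105 in edgeR's test).

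**Figure D4:**
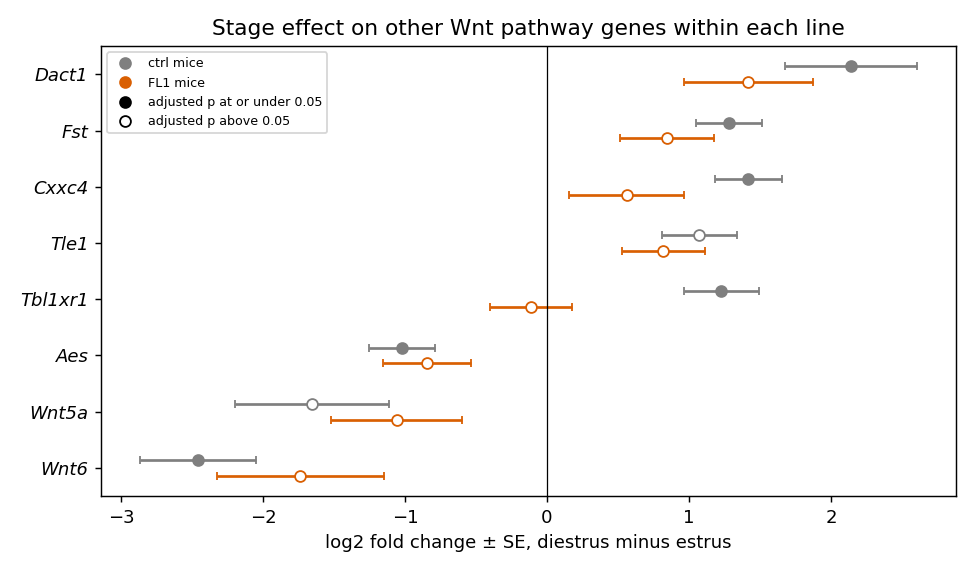
Log2 fold change between diestrus and estrus with its standard error within ctrl mice (gray) and within FL1 mice (orange), from edgeR fits of 10 mice each, for the pathway genes called in any comparison except Sfrp2, which was too rarely read to be tested within a line. Filled points passed an adjusted p of 0.05, and 7 of 8 genes have the same sign in both lines, with Tbl1xr1 (1.23 in ctrl and −0.11 in FL1 mice) as the exception.

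The genes whose pattern over the 20 mice was most like that of Sfrp4 or Wnt4 were found by the root mean square difference of standardized log2 CPM among the 14937 other genes tested. For Sfrp4 they were Tmem178 (0.558) and Ptgfr (0.613), against a median of 1.41 over all genes. Tmem178 had group means of 28.8 CPM in ctrl and 70.3 CPM in FL1 mice in estrus and of 8.66 CPM and 41.9 CPM in diestrus, and Ptgfr of 33.0, 124.6, 28.1 and 112.8 CPM in the same order. For Wnt4 they were Larp1b (0.508) and Lmna (0.592), against a median of 1.42. Larp1b had group means of 47.7 CPM in ctrl and 51.9 CPM in FL1 mice in estrus and of 24.6 CPM and 34.7 CPM in diestrus, and Lmna of 80.1, 70.5, 39.5 and 45.7 CPM in that order. The 20 mice share the line and the stage, so likeness of patterns is a description.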

How the data were processed

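GCs of 20 mice were sequenced from the 3′ end (QuantSeq forward libraries). Per the labels the authors used STAR and the build GRCm38, and after adapter trimming and alignment they deposited raw read counts per Ensembl gene with 5446576 to 8257041 reads on genes per mouse (48.9% to 58.4% of all reads listed). The rows for unassigned reads stayed out of library sizes, and reads with several matches (23.2% to 32.8%) are in no gene. The strand setting of the counting is not given in the sources used here. Of 55487 identifiers 55227 had a GENCODE M21 symbol.

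Here edgeR 4.0.16 in R 4.3.3 was run on the deposited counts with TMM scaling, a filter on low counts (minimum count 10, minimum total 15, share 0.7) and the quasi-likelihood F test. Each comparison of 2 groups used its 10 mice, and the additive and interaction models used all 20. CPM used TMM over 20 mice, and log2 CPM for patterns had a prior count of 2. The fits were tested on simulated data with known fold changes, in which 39.3% of genes changed by 1 and 73.1% of genes changed by 2 on the log2 scale were recovered for the line effect over both stages (13934 genes). Alternatives were DESeq2 1.42.0, RLE size factors, no filter, the replicate number as a block, all 20 mice in 1 fit, other scalings of CPM, and each mouse left out. Leaving out the 2 libraries of lowest rank correlation was added after seeing the data. Near-identical transcript ends were searched with BLAST 2.17.0, and Python 3.11.15 with pandas 2.3.3 was used for summaries.

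The members, the list of other pathway genes and the markers were chosen with earlier results of these data known. All members are named. Of the other pathway genes those called in at least 1 comparison are named and otherwise the gene of lowest p in its role, and for each called member the 2 genes of nearest pattern. The markers of cell types given by name were chosen after their values were seen, mostly because edgeR called them. Nothing says that the mice came from separate litters. The tests set each difference against the spread between these mice and treat the mice as independent. If mice shared litters, the p-values could be too small.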

Additional observations from a re-analysis of the deposited data

Results flagged for a closer look

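In each of the 40 combinations of gene and group the highest and the lowest of the 5 mice were set against the others by Dixon's ratio, which chance exceeds in about 1 in 20 groups, and 3 mice were beyond its critical value of 0.71. Lrp6 was at 48.6 CPM in ctrl estrus mouse 5, while the next mouse of the group was at 92.6 CPM. Lrp6 was at 53.6 CPM in FL1 estrus mouse 4, with the next mouse at 93.0 CPM. Tcf7l2 was at 89.8 CPM in the same FL1 mouse, with the next at 48.3 CPM, and this library had 1 of the 2 lowest rank correlations with the others. The FL1 diestrus mouse with 982 CPM of Sfrp4 was not beyond the critical value. The interaction test of line and stage called 0 of the 10 genes in edgeR and in DESeq2.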

How the results depend on the processing

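RLE size factors changed no call and no sign of the values given, and the levels of the 10 genes changed by less than 1 SD under RLE or unscaled library sizes. The number of members called was more sensitive. The share of all genes called is not given for the fits without the filter, without the 2 libraries, without 1 mouse or with a block. The counts from these fits therefore show how calls move with the setting and are no result about the members. Between the lines in estrus edgeR called 0, and DESeq2 and edgeR without the filter each called 1 (Sfrp4). Without the filter 1 was called between the lines in diestrus (Sfrp4), 2 between the stages in ctrl mice (Wnt4 and Sfrp1), 1 in FL1 mice (Wnt4) and 2 over both lines (Wnt4 and Sfrp1), against 0, 0, 0 and 1. DESeq2 called 2 between the lines over both stages and 4 between the stages over both lines, against 1 and 1. Without the 2 libraries of lowest correlation, a choice made after seeing the data, 1 was called between the stages in ctrl mice and 3 over both lines, the 1 called between the lines over both stages was Tcf7l2 in place of Sfrp4 (adjusted p = 0.0631), and Fzd4 changed its sign between the lines (0.143). The cause was not tested.

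With the replicate number as a replicate block, 0 members were called between the lines over both stages, since Sfrp4 was at 1.63 with an adjusted p of 0.12. Same-numbered mice did not deviate together (correlations of deviations from −0.14 to 0.13, with the own number best in 3 of 20 cases). The main fits therefore did not use the numbers as pairs. These correlations cannot show whether same-numbered mice shared a litter or a day, which the sources used here do not name. Of the pathway genes, Wnt5a over both lines (adjusted p = 0.079) and Tbl1xr1 (0.0561) and Aes (0.0796) in ctrl mice lost their edgeR call under the block, and Aes also with all 20 mice in 1 fit (0.0835).

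When 1 mouse was left out, members called ranged from 0 to 1 between the lines in estrus, 0 to 1 between the stages in ctrl mice, 0 to 2 between the lines over both stages and 1 to 2 between the stages over both lines. Log2 fold changes with a change of sign ranged from −0.463 to 0.364 for Wnt4, −0.141 to 0.0892 for Fzd4 and −0.0494 to 0.0966 for Lrp6 between the lines, from −0.28 to 0.364 for Sfrp4 between the stages and from −0.0466 to 1.49 for its interaction. In simulated data 18.5% of genes changed by 1 on the log2 scale were called in estrus (12242 genes), so a change of that size can be missed at this depth and with 5 mice per group.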
